A study of Mus musculus with 73 samples.

Results

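Adrenal glands that lost Znrf3 were compared between female (XX) and male (XY) mice of 12 weeks, gene by gene over the autosomes, and the same contrast in wild-type (WT) glands was set beside it. ZNRF3 is a membrane ubiquitin ligase that removes WNT receptors from the cell surface. The knockout (KO) mice were Sf1-Cre;Znrf3F/F: Cre driven by Sf1 deletes the exons that encode the RING domain in steroidogenic cells, so cells of these whole glands that never express Sf1 keep the gene. WT mice were littermates of the same age, and the labels name no drug or hormone. The libraries compared were 4 of XX KO, 4 of XY KO, 4 of XX WT and 5 of XY WT, 17 of the 73 of the series. The members are the 18663 autosomal genes, of 54838 genes in the table, that had a mean of at least 0.5 RPKM (reads per kilobase of exon, scaled to the depth of the library) in either KO group and that stand on none of the 8 macrophage lists used in the study or of a further macrophage marker list. Nothing in the sources states whether each library is a separate animal, so the error behind each p-value is that between libraries, which may be technical.

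The adrenal cortex is built in concentric zones that make aldosterone, corticosterone and, in the young mouse, the transient X-zone next to the medulla. Mouse adrenals are strongly dimorphic: androgens clear the X-zone of males at puberty, whereas in females it lasts until a first pregnancy or regresses slowly, and the cortex is renewed faster in females. WNT signals from the outer cortex and capsule keep the outer zone in place, and progenitors there express Shh. As whole glands were sequenced, fewer cells of a type and less RNA per cell cannot be told apart in any value below.

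The libraries held 18.4 to 50.9 M reads, recovered from the RPKM steps, and 1 read in a kilobase of exon was worth 0.0202 to 0.0568 RPKM. Xist and Ddx3y placed all 17 libraries with their labelled sex. Replicate 1 of XX KO stood apart: 4.41% of its reads fell on ribosomal RNA-like genes against 0.0855% to 0.584% in the other 16 libraries, and its depth was 23.6 M reads. Replicate 4 of XY KO had the lowest macrophage genes of its group. The level of Znrf3 does not check the deletion, because reads outside the deleted exons remain. Znrf3 was at 8.59 to 9.62 RPKM in XX KO and 8.1 to 10.5 RPKM in XY KO, with both sexes overlapping, and at 4.05 to 6.84 and 2.87 to 6.52 RPKM in XX and XY WT.

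Sex went together with the numbers in the library titles at 12 weeks. The XX libraries of 12 weeks are numbered 66 to 73 and the XY libraries 23 to 33. On the first principal component of the series (33.3% of the variance of 8000 genes), XX libraries of 4, 6 and 12 weeks scored 27.5 to 43.2 and XY libraries of those ages -46.9 to -13.9. The XX libraries of 52 weeks, numbered 42 to 49, scored -30.8 to -10.7, on the side of the XY libraries. The fit called 62.3% of autosomal genes different between XX WT of 12 and of 52 weeks (11749 genes). Between XX KO of 12 and of 52 weeks it called 16.4% (2996 genes), and between XX WT of 12 and of 78 weeks 9.12% (1711 genes). In WT of 78 weeks, whose sexes are numbered 82 to 85 and 74 to 77, it called 6.53% (1259 genes). No label names a batch. At 12 weeks, sex and whatever the title numbers stand for cannot be told apart within KO or within WT. A shift of equal size on the log scale in all libraries of 1 sex cancels in the KO minus WT difference. That difference is given for many of the genes below, and a gene given with KO values alone carries no such control. WT values of 78 weeks and XX KO values of 52 weeks follow further on.

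**Figure D1:**
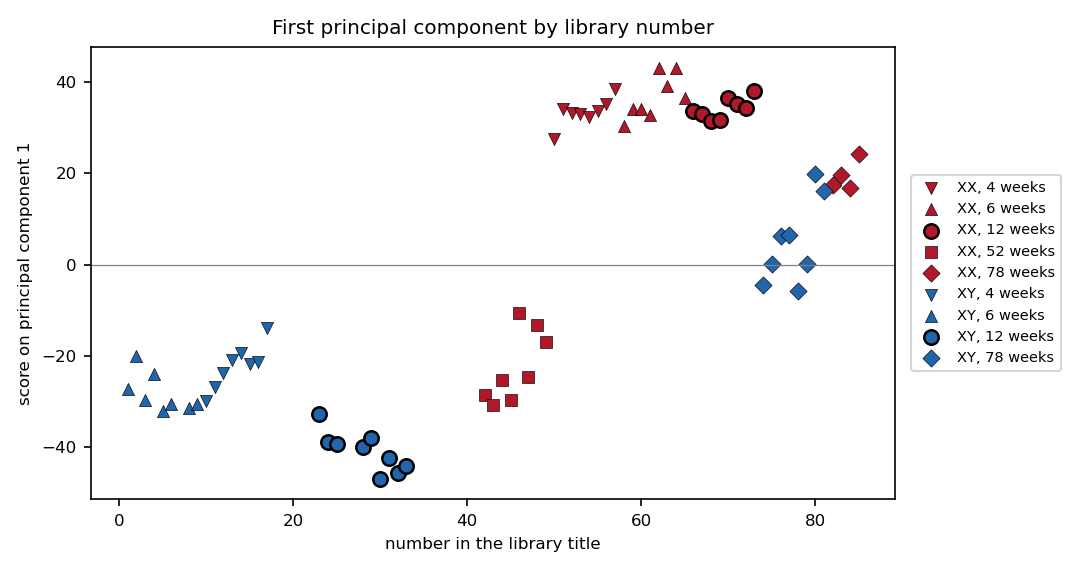
Score of each library on the first principal component (vertical axis) by the number in its title (horizontal axis). Colour gives sex and shape gives age, with the 17 libraries of 12 weeks outlined in black. The 8 XX libraries of 12 weeks sit between 31.4 and 38.1 and the 9 XY libraries between -46.9 and -32.9, while the XX libraries of 52 weeks lie below 0.

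Among KO glands, 4995 genes (26.8% of those tested) were higher in XX and 4730 (25.3%) higher in XY at an adjusted p under 0.05 (limma on log2(RPKM + 1), Benjamini-Hochberg over all genes). WT glands gave 3819 genes (20.5%) higher in XX and 3492 (18.7%) higher in XY of 18628. Most calls were small: 1074 genes were higher in XX KO by at least 1 on the log2 scale and 980 in XY KO, against 717 and 506 in WT. At a log2 change of at least 3, XX KO had 151 genes and XY KO had 24, against 110 and 3 in WT. The balance of directions depended on scaling: genes higher in XX made up 51.4% of KO calls with the joint scaling, 38.4% with the deposited scaling and 28.3% after setting libraries to a common sum. These choices moved the median log2 change of all genes from 0.03 to -0.08 and -0.15. With the common sum, 1950 genes were higher in XX KO. In WT the share was 52.2% with the joint scaling, 37.0% with the deposited scaling and 48.3% with the common sum. Without replicate 1 of XX KO the KO counts were 4569 and 4337, and without replicate 4 of XY KO 4537 and 4479.

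More of the KO calls were also calls in WT than not. Of 17966 genes tested in both, 2865 were called higher in XX in both genotypes and 2498 higher in XY in both. A further 2004 genes were called higher in XX and 1998 higher in XY in KO alone, of which the difference between genotypes itself passed the test for 138 and 310. Directions were opposite for 32 genes: 19 were higher in XX WT and in XY KO, and 13 were higher in XY WT and in XX KO. The test of KO minus WT called 352 genes (1.82% of 19325) shifted toward XX in KO and 651 genes (3.37%) shifted toward XY.

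These interaction counts moved with single libraries. Genes shifted toward XX numbered 572 without replicate 5 of XY WT, 233 without replicate 2 and 168 without replicate 3 of XY KO, 231 without replicate 1 and 191 without replicate 4 of XX WT, and 210 without replicate 2 of XX KO. Genes shifted toward XY numbered 386 without replicate 3 of XY KO and 397 without replicate 4 of XX WT. With the common sum, 59 genes were shifted toward XX and 552 toward XY, so that the first made up 9.7% of calls against 35.1% with the joint scaling.

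**Figure D2:**
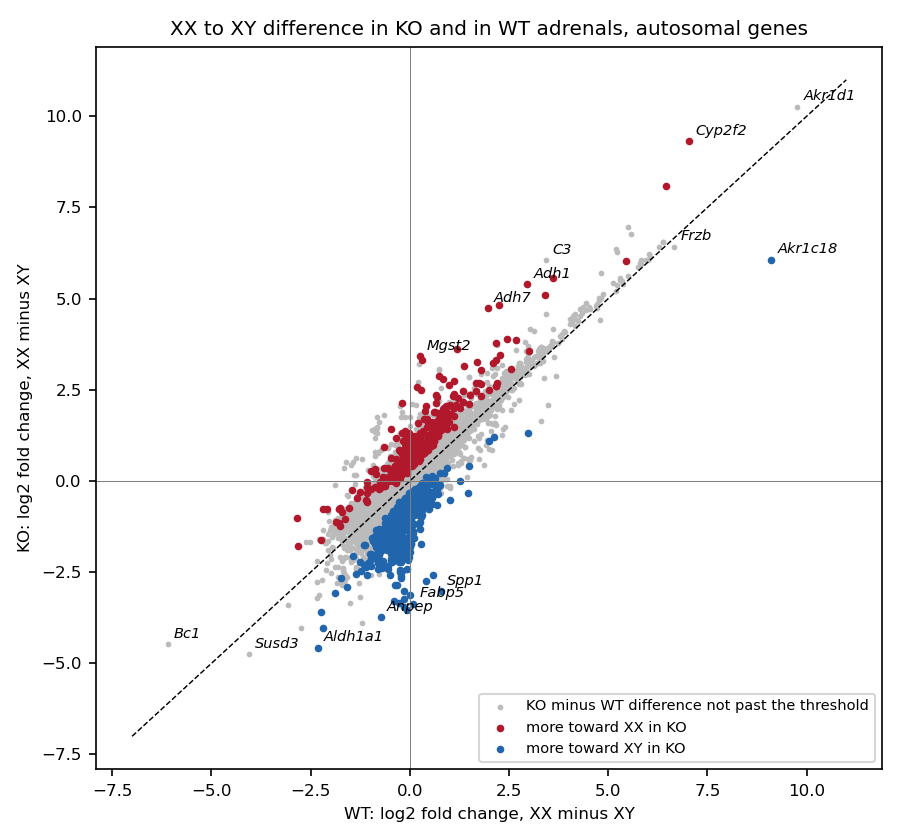
Log2 fold change XX minus XY in KO (vertical) against the same in WT (horizontal) for autosomal genes tested in both. Red and blue points passed the test of the difference between genotypes, and the dashed line marks equal change. Akr1d1 (10.27 in KO, 9.77 in WT) lies near the line and Akr1c18 (6.07 and 9.10) far below it.

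The largest excess in XX KO was that of Akr1d1 and the next that of Cyp2f2. Akr1d1, a steroid reductase of bile acid synthesis in liver, measured 1340, 1470, 1000 and 1650 RPKM in XX KO and 0.0451, 0.0565, 0.164 and 0.111 RPKM in XY KO. WT sexes were also apart, at 1080, 1090, 1050 and 810 RPKM in XX and 0.0452 to 0.271 RPKM in XY. The log2 fold change was 10.27 ± 0.14 (SE) in KO with an adjusted p of 2.47e-10, and KO minus WT was 0.50 (adjusted p = 0.119). Akr1d1 was thus abundant in every XX library and near 0 in every XY library, in KO and in WT.

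Cyp2f2, a cytochrome P450 known from the airway epithelium, was also near 0 in XY glands of both genotypes with a larger XX level in KO. It measured 681, 789, 659 and 1230 RPKM in XX KO, 87.9, 139, 263 and 379 RPKM in XX WT, 0.175 to 0.361 RPKM in XY KO and 0.162 to 1.18 RPKM in XY WT. All XX KO libraries lay above all XX WT libraries. The log2 fold change was 9.32 ± 0.18 in KO and 7.04 ± 0.38 in WT, and the difference of 2.28 ± 0.47 passed the test (adjusted p = 0.0104), though not with voom weights (adjusted p = 0.198).

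The alcohol dehydrogenases Adh1 and Adh7, which oxidise retinol, had a wider sex difference in KO. Adh7 was at 51.3, 85.4, 72 and 94.9 RPKM in XX KO against 21.2, 24.9, 27.4 and 17.8 RPKM in XX WT. In XY it was at 1.89, 2.08, 2.01 and 1.35 RPKM in KO against 5.52, 4.07, 3.4, 7.38 and 5.48 RPKM in WT. The 4 groups did not overlap, XX KO being highest and XY KO lowest. KO minus WT was 2.77 ± 0.28 (adjusted p = 0.000129). Adh1 had the same order, with means of 2647 ± 260 RPKM in XX KO (SD, n = 4), 1672 ± 116 RPKM in XX WT (n = 4), 245 ± 137 RPKM in XY WT (n = 5) and 62.7 ± 12.3 RPKM in XY KO (n = 4), and KO minus WT was 2.43 ± 0.45 (adjusted p = 0.00499). Its groups did not overlap either.

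Other genes with a large excess in XX KO had varied roles. Frzb, a secreted WNT antagonist, was at 148, 147, 153 and 160 RPKM in XX KO and 0.702, 1.15, 0.601 and 0.703 RPKM in XY KO. Its log2 fold change was 6.43 in KO and 6.66 in WT, and their difference did not pass (-0.23 ± 0.16, adjusted p = 0.444). Complement C3, the central component of that cascade, was at 579, 1050, 648 and 1150 RPKM in XX KO and 16.2, 41.1, 7.48 and 2.75 RPKM in XY KO, a log2 fold change of 6.06 ± 0.65 against 3.44 ± 0.53 in WT, and that gap did not pass the test (adjusted p = 0.106). Oxtr, the oxytocin receptor, averaged 83.2 ± 25.1 RPKM in XX KO and 0.726 ± 0.208 RPKM in XY KO (SD, n = 4 each), with a log2 fold change of 5.56 ± 0.21 in KO and 3.61 ± 0.38 in WT.

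A further 4 genes of the 12 were chosen, like all of them, for a lack of overlap between the KO libraries. Vnn3, a pantetheinase, changed by 5.09 in KO and 3.41 in WT on the log2 scale. Serpinb1a, an inhibitor of neutrophil proteases, changed by 4.88 and 4.45, A2m (alpha-2-macroglobulin, a broad protease inhibitor) by 4.83 and 2.25, and Cd1d1, which presents lipids to T cells, by 4.61 and 4.34. KO minus WT did not pass for Serpinb1a (0.43, adjusted p = 0.635) or Cd1d1 (0.26, adjusted p = 0.636). Cd1d1 has a near-identical neighbour, Cd1d2, so its reads may be shared. The KO minus WT calls of Oxtr (1.96), Vnn3 (1.68) and A2m (2.57) were lost in 9, 9 and 18 of 25 alternative analyses.

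The promoters of the 2 genes with the largest excess in XX KO and of the gene with the largest excess in XY KO are shown for their sequence, from RefSeq on GRCm38.p6, each 250 bases before to 50 after the start site and read 5′ to 3′ along the gene. Capitals mark the hexamer TGTTCT or its reverse complement AGAACA, part of the element that androgen and glucocorticoid receptors bind.
Akr1d1 (chr6:37529923-37530222, plus strand): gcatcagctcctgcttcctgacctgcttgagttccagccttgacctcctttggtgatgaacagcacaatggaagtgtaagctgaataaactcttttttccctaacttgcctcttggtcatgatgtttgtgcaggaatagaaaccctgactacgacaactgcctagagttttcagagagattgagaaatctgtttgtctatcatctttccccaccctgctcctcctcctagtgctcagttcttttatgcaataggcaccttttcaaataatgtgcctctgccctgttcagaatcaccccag
Cyp2f2 (chr7:27119705-27120004, plus strand): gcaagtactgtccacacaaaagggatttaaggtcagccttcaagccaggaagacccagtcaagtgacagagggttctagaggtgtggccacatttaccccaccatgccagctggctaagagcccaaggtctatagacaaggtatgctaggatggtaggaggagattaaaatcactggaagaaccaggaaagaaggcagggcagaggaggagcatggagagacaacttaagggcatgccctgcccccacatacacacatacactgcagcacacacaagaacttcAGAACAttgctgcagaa
Susd3 (chr13:49248245-49248544, minus strand): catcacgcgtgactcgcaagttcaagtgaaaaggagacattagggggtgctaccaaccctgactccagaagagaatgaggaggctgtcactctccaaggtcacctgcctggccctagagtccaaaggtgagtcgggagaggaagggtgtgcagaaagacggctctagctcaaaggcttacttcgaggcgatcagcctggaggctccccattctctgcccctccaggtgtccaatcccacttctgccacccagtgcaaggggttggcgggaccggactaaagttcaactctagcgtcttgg
The Cyp2f2 window held 1 match and the others none. Of 10458 tested genes with a promoter in the table, 12.2% held the hexamer on either strand, as did 12.2% of the 2754 called higher in XX KO and 12.4% of the 2809 called higher in XY KO. The share over all 27025 genes with a promoter was 19.0%. The hexamer was searched on both strands, with no other motif, and these windows say nothing of sites elsewhere.

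**Figure D3:**
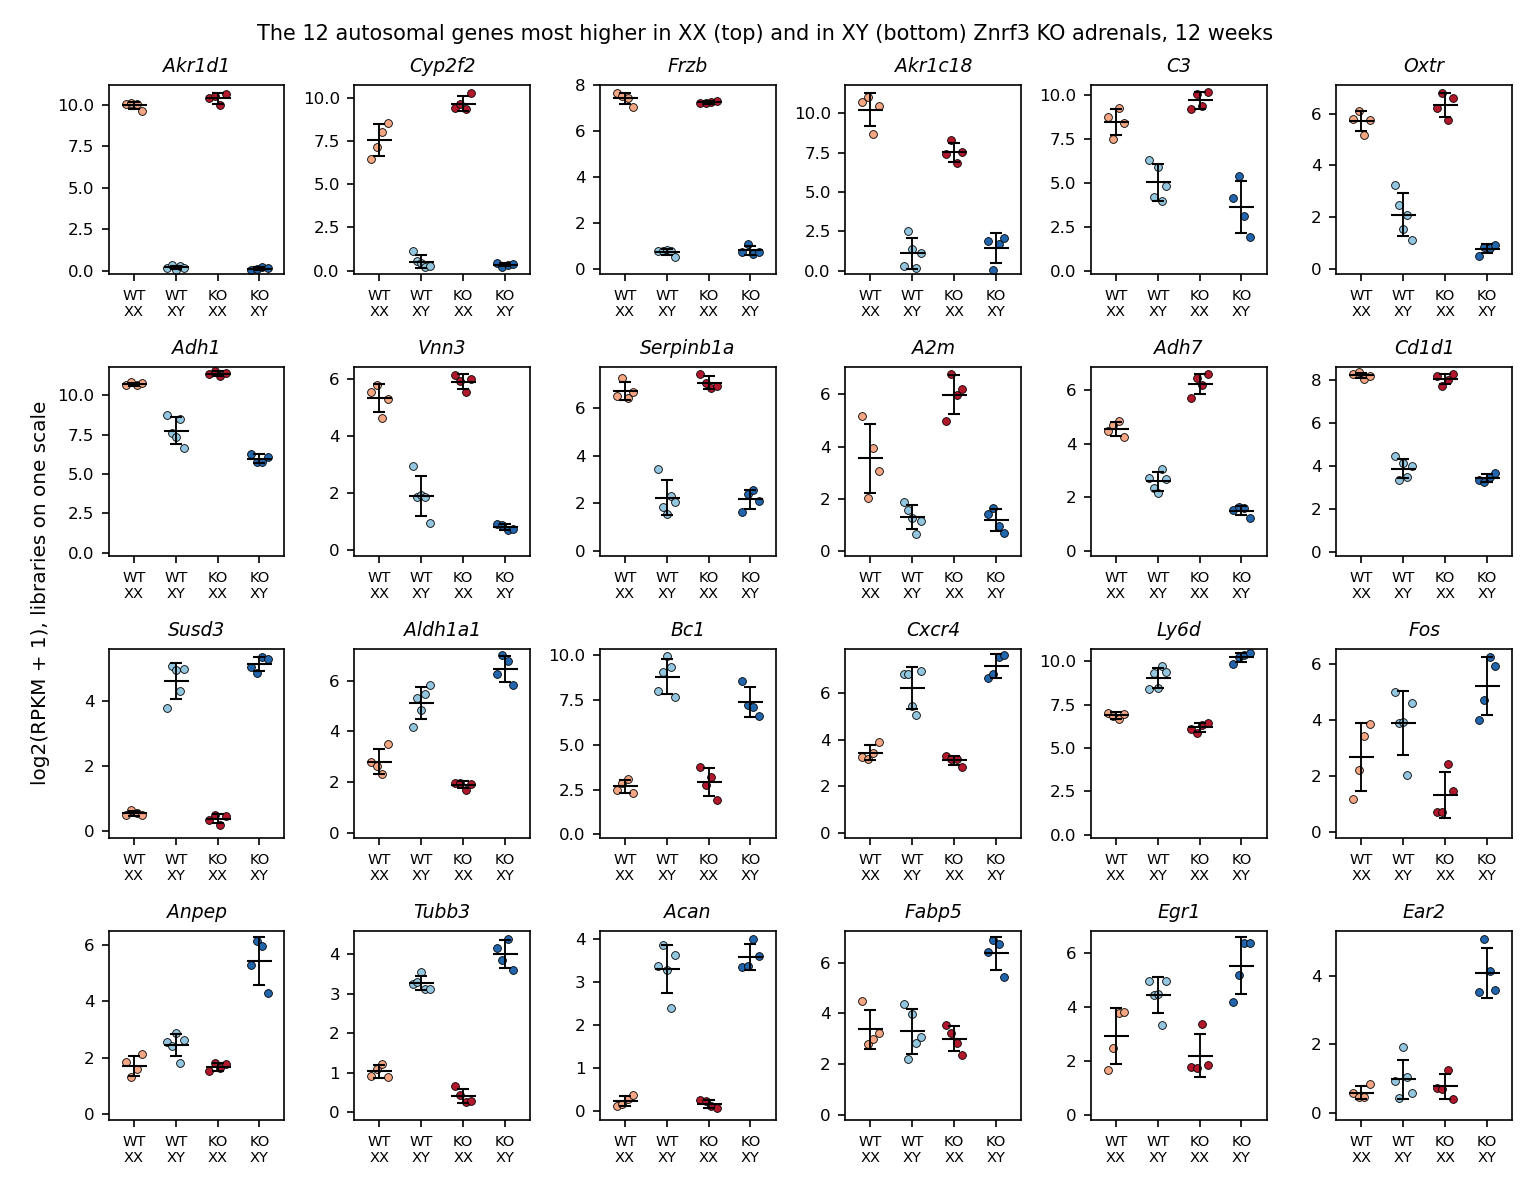
Log2(RPKM + 1) in each library (points) with the mean and SD (bars) for the 12 autosomal genes with the largest excess in XX KO (upper rows) and the 12 with the largest excess in XY KO (lower rows), over 4 XX WT, 5 XY WT, 4 XX KO and 4 XY KO libraries. Akr1d1, Cyp2f2 and Frzb sit near 0 in all XY libraries, whereas Anpep, Fabp5 and Ear2 are highest in XY KO and low in the 3 other groups.

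Genes higher in XY KO included some that were also higher in XY WT and some at their highest in XY KO. Susd3, a membrane protein with a sushi domain, belonged to the first: it measured 31.9, 27.9, 39.3 and 37.7 RPKM in XY KO and 0.273, 0.43, 0.158 and 0.389 RPKM in XX KO, with 12.7 to 32.5 and 0.412 to 0.566 RPKM in XY and XX WT. Its log2 fold change was -4.74 ± 0.12 in KO and -4.06 ± 0.24 in WT, and KO minus WT did not pass (adjusted p = 0.217). Acan, the cartilage proteoglycan aggrecan, changed by -3.39 in KO and -3.06 in WT. Cxcr4, the receptor of the chemokine CXCL12, was at 99, 111, 184 and 197 RPKM in XY KO and 6.21 to 8.76 RPKM in XX KO, a change of -4.03 ± 0.23 against -2.75 ± 0.40 in WT. KO minus WT did not pass for Acan (-0.33, adjusted p = 0.597) or Cxcr4 (-1.28, adjusted p = 0.169).

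For some of these genes the gap was wider in KO. Aldh1a1, a retinal dehydrogenase, was at 76.6, 127, 107 and 56.2 RPKM in XY KO and 2.92, 2.95, 2.24 and 2.84 RPKM in XX KO, and at 17.2 to 55.3 and 4.03 to 10.2 RPKM in XY and XX WT. The KO libraries lay outside the WT range of their own sex on both sides, and KO minus WT was -2.25 ± 0.44 (adjusted p = 0.00713). Its near-identical neighbour Aldh1a7 can share reads. Ly6d, a small membrane protein, averaged 1213 ± 228 RPKM in XY KO and 72.8 ± 11.9 RPKM in XX KO (SD, n = 4 each), with KO minus WT at -1.85 ± 0.34 (adjusted p = 0.00523). Tubb3, a neuronal tubulin, had KO minus WT at -1.36 ± 0.21 (adjusted p = 0.00184).

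The retinoid enzymes thus went in opposite directions: Adh1 and Adh7 were higher in XX and Aldh1a1 higher in XY, each with a wider gap in KO. Bc1, a small non-coding RNA of rodents, was lower in XX of 12 weeks, at 2.78 to 12.4 RPKM in KO and 3.99 to 7.42 RPKM in WT, against 95.6 to 376 and 198 to 986 RPKM in XY. In XX glands of 52 weeks it reached 122 to 180 RPKM in KO and 147 to 298 RPKM in WT, which overlapped the XY range of 12 weeks. Whether age or the title numbers go with that change cannot be told apart.

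Immediate early genes, the transcription factors that cells induce within minutes of a stimulus, were higher in XY KO. Fos was at 15.1, 25.4, 73.9 and 59.9 RPKM in XY KO and 0.639, 0.646, 4.44 and 1.77 RPKM in XX KO, and Egr1 at 17.5, 36, 82.7 and 81.8 and 2.4, 2.34, 9.43 and 2.64 RPKM. The log2 fold changes were -3.89 ± 0.55 and -3.36 ± 0.55 in KO and -1.21 ± 0.66 and -1.51 ± 0.48 in WT. KO minus WT did not pass for either (adjusted p = 0.116 and 0.197). Of 10 members tested, 8 were higher in XY KO and none higher in XX KO, with a median of -1.82, against 3 of 9 in WT. The shares of all genes higher in XY were 25.3% in KO and 18.7% in WT. Among these 10 members, KO minus WT passed for Atf3 alone. Without replicate 1 of XX KO or without replicate 4 of XY KO, 7 were higher in XY KO.

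The 6 largest shifts toward XY were genes at their highest in XY KO. Spp1, the secreted protein osteopontin, was at 35, 52.8, 48.3 and 8.44 RPKM in XY KO but 2.38 to 3.55 RPKM in XX KO, 2.14 to 7.13 RPKM in XY WT and 5.34 to 9.6 RPKM in XX WT. Replicate 4 of XY KO was the lowest of its group and inside the XX WT range. KO minus WT was -3.80 ± 0.61 (adjusted p = 0.00251), and the WT difference alone did not pass (0.79, adjusted p = 0.0681).

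The other 5 of these genes were also lowest in replicate 4 among XY KO libraries. Fabp5, a fatty acid carrier, measured 85, 118, 104 and 42.3 RPKM in XY KO and 4.2 to 10.7 RPKM in XX KO. Ctsl, the lysosomal protease cathepsin L, measured 172, 263, 243 and 48.3 and 20.9 to 28.7 RPKM. Lyz1, a lysozyme whose close paralog Lyz2 can share reads, measured 100, 307, 229 and 71.5 and 15.1 to 33.6 RPKM. In each, replicate 4 of XY KO was still above every library of the 3 other groups. Anxa1, a phospholipid-binding protein that limits inflammation, had a KO minus WT of -3.12 ± 0.43 and Atf3, a stress-induced transcription factor, -3.09 ± 0.42 (adjusted p = 0.000943 and 0.0008).

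Anpep, an aminopeptidase, and Ear2, a ribonuclease with near-identical family members, were likewise highest in XY KO, with KO minus WT of -3.01 ± 0.44 and -2.91 ± 0.45. Macrophage markers moved with these genes although the members exclude the macrophage lists. Summed over 16 markers, they reached 1020 to 3870 RPKM in XY KO against 176 to 373 RPKM in XX KO, 202 to 242 RPKM in XX WT and 232 to 297 RPKM in XY WT. Cd68 was at 179, 294, 248 and 73.2 RPKM in XY KO, again lowest in replicate 4, and 11.5 to 19.6 RPKM in XX KO. Without replicate 4 of XY KO, 861 genes were shifted toward XY. The part of macrophages in the 6 largest shifts was not tested.

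Fewer genes were shifted toward XX in KO. Mgst2, a microsomal glutathione transferase, measured 38.3, 47.7, 30.5 and 32.9 RPKM in XX KO and 5.61, 1.98, 1.12 and 2.66 RPKM in XY KO, against 8.49 to 16.2 and 7.94 to 13.1 RPKM in XX and XY WT. The WT sexes overlapped and the KO sexes lay on either side of them. KO minus WT was 3.17 ± 0.39 (adjusted p = 0.000419). Cryba4, known as a lens crystallin, was at 68.6, 111, 90.9 and 99.9 RPKM in XX KO and 19.2, 11.4, 10.1 and 19.6 RPKM in XY KO, with KO minus WT at 2.40 ± 0.41 (adjusted p = 0.00337). Fmo1, a flavin monooxygenase of drug metabolism, had a KO minus WT of 2.42 ± 0.52 (adjusted p = 0.0136).

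**Figure D4:**
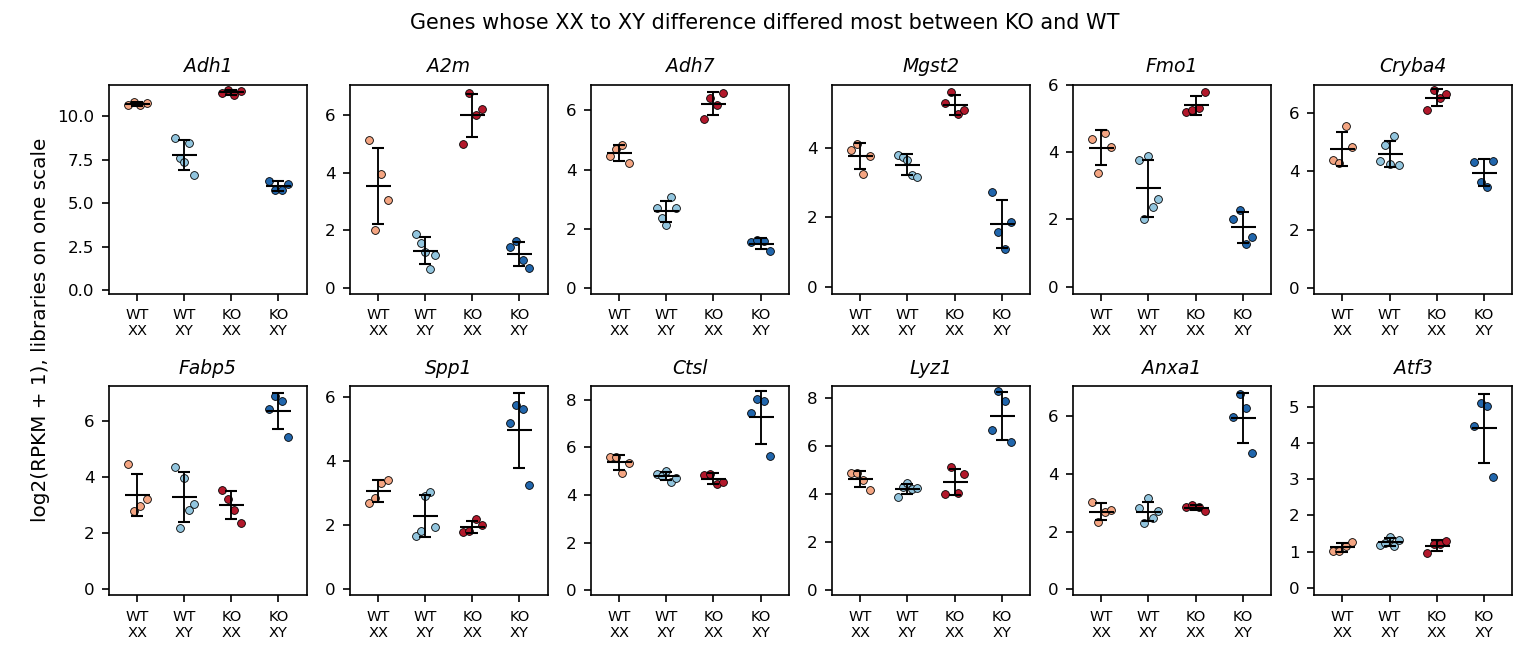
Log2(RPKM + 1) in each library (points) with mean and SD (bars) for the 6 genes shifted most toward XX in KO (upper row) and the 6 shifted most toward XY (lower row). In the lower row the 4 XY KO libraries stand above the 3 other groups, as with Anxa1 at 25.3 to 110 RPKM, except that replicate 4 lies inside the XX WT range for Spp1.

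The rule for the largest genes used the 12-week KO libraries only, so libraries of other ages can be read beside it. In WT of 78 weeks, all 12 genes with the largest excess in XX KO had a log2 fold change toward XX. Of them, 8 passed the test across all genes. Akr1d1, for example, averaged 141 RPKM in XX and 13.9 RPKM in XY of 78 weeks (log2 fold change 4.65 ± 0.96, adjusted p = 0.0264). For Akr1c18 the change was within its error (0.69 ± 1.19, adjusted p = 0.801), and its mean was lower in XX (13.35 RPKM) than in XY (34.7 RPKM). Of the 12 genes with the largest excess in XY KO, 10 had the same direction at 78 weeks and 3 passed: Susd3 (-2.18), Cxcr4 (-1.59) and Tubb3 (-1.97). Ear2 passed in the opposite direction (1.17, adjusted p = 0.0107). KO glands of 78 weeks were not compared, because the columns of XX KO and XY KO of that age hold the same values.

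XX KO libraries of 52 weeks, which lie on the XY side of the first component, gave a further set of values. All 4 XX KO libraries of 52 weeks lay above every XY KO library of 12 weeks for each of the 12 genes with the largest excess in XX KO. For Akr1d1 they ranged over 76.1 to 874 RPKM and for Cyp2f2 over 68.2 to 682 RPKM. They lay below every XY KO library for 10 of the 12 genes with the largest excess in XY KO, the exceptions being Bc1 and Ear2. The XY KO values in both counts are the ones that chose the genes, so only the 52-week side is new. Age differs too, and no test was run. How many of all genes tested separate in the same way was not counted, so these counts have no background to be read against.

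Gene lists put these single genes in context, each read against the share of all genes tested. Those shares were 26.8% higher in XX and 25.3% higher in XY in KO, and 20.5% and 18.7% in WT. For KO minus WT they were 1.82% toward XX and 3.37% toward XY. Under the deposited scaling, the common sum and without replicate 1 of XX KO or replicate 4 of XY KO, the median of 1 of 27 lists turned sign, that of granulocytes and mast cells. Cholesterol synthesis and uptake supplies the substrate of steroid hormones: 17 of 21 members were higher in XX KO and none higher in XY KO, with a median log2 change of 0.94 against 0.03 over all genes tested. WT had 8 of 21 with a median of 0.41. Hmgcs1, which opens the mevalonate pathway, was at 55.6, 41, 42.8 and 51.7 RPKM in XX KO and 11.7, 11.3, 10.6 and 11 RPKM in XY KO, a change of 2.00 ± 0.10 (adjusted p = 1.02e-06). Idi1, an isomerase of isoprenoid units, changed by 1.51 ± 0.08 and Cyp51, the lanosterol demethylase, by 1.36 ± 0.09 (adjusted p = 1.45e-06 and 6.54e-06). KO minus WT did not pass for any of these 3 genes.

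Steroidogenesis genes were also tilted toward XX: 11 of 18 were higher in XX KO and 2 higher in XY KO (median 0.63), against 5 and 1 of 19 in WT (median 0.23). KO minus WT passed for 1 of 19, toward XY. Cyp11b1, the last enzyme of corticosterone synthesis, was at 2440, 3490, 2870 and 3730 RPKM in XX KO and 1060, 1500, 1120 and 1240 RPKM in XY KO, a change of 1.34 ± 0.17 (adjusted p = 0.000284). Nr5a1, which encodes SF1, the transcription factor of steroidogenic cells, was at 461, 403, 452 and 432 and 125, 158, 139 and 238 RPKM, a change of 1.44 ± 0.18 (adjusted p = 0.00026). The ACTH receptor gene Mc2r changed by 0.67, its accessory protein gene Mrap by 1.23, the hormone-sensitive lipase gene Lipe by 1.28, and Hsd3b1, an early enzyme of the pathway, by 0.94.

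Not all of the pathway leaned to XX. Cyp11a1, which cuts the cholesterol side chain, was higher in XY KO (-0.49 ± 0.14, adjusted p = 0.0171). Star, which carries cholesterol into mitochondria, passed narrowly at 0.65 ± 0.22 (adjusted p = 0.0322) and lost its call in 9 of 17 alternatives. Akr1b7, a reductase that responds to ACTH, had -0.58 ± 0.34 and did not pass (adjusted p = 0.185). KO minus WT passed for none of the 9 genes just named. Summed over 19 members, the list reached 26100 to 31400 RPKM in XX KO, 14800 to 18400 RPKM in XY KO, 20800 to 24600 RPKM in XX WT and 11900 to 25900 RPKM in XY WT.

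Hormone receptors were mostly higher in XX KO, with 7 of 11 against 2 higher in XY KO (WT, 4 and 1 of 11) and 4 with the common sum. Prlr, the prolactin receptor, was at 30.1, 25.8, 30.8 and 43.5 RPKM in XX KO and 5.62, 11.1, 6.47 and 4.58 RPKM in XY KO (2.12 ± 0.24 in KO, 2.25 ± 0.12 in WT, KO minus WT -0.13 ± 0.28, adjusted p = 0.837). Esr1, an estrogen receptor, changed by 0.58 ± 0.13 in KO. Gper1, a membrane receptor for estrogen, went the other way at -1.46 ± 0.13. KO minus WT was 0.44 for Esr1 and -0.48 for Gper1 and did not pass (adjusted p = 0.218 and 0.202).

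X-zone markers were higher in XX in both genotypes. Akr1c18, a hydroxysteroid dehydrogenase that inactivates progesterone, was at 1640, 2060, 405 and 1410 RPKM in XX WT but 166, 308, 114 and 183 RPKM in XX KO, with all XY libraries at or below 4.82 RPKM. Pik3c2g, a lipid kinase of the same zone, was at 16.7, 31.9, 1.69 and 5.31 RPKM in XX WT and 4.37, 3.66, 1.3 and 0.675 RPKM in XX KO. It was listed at 0 in all 4 XY KO libraries, where 3 reads would give 0.00591 to 0.00647 RPKM. The third marker, Thrb, a thyroid hormone receptor, had a change of 1.81 ± 0.08 in KO and 1.57 ± 0.17 in WT. KO minus WT was -3.03 ± 0.80 for Akr1c18 (adjusted p = 0.0377, lost in 14 of 25 alternatives) and -1.67 ± 0.76 for Pik3c2g (adjusted p = 0.231). The sex difference was thus smaller in KO past the threshold for Akr1c18 alone among the 3.

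**Figure D5:**
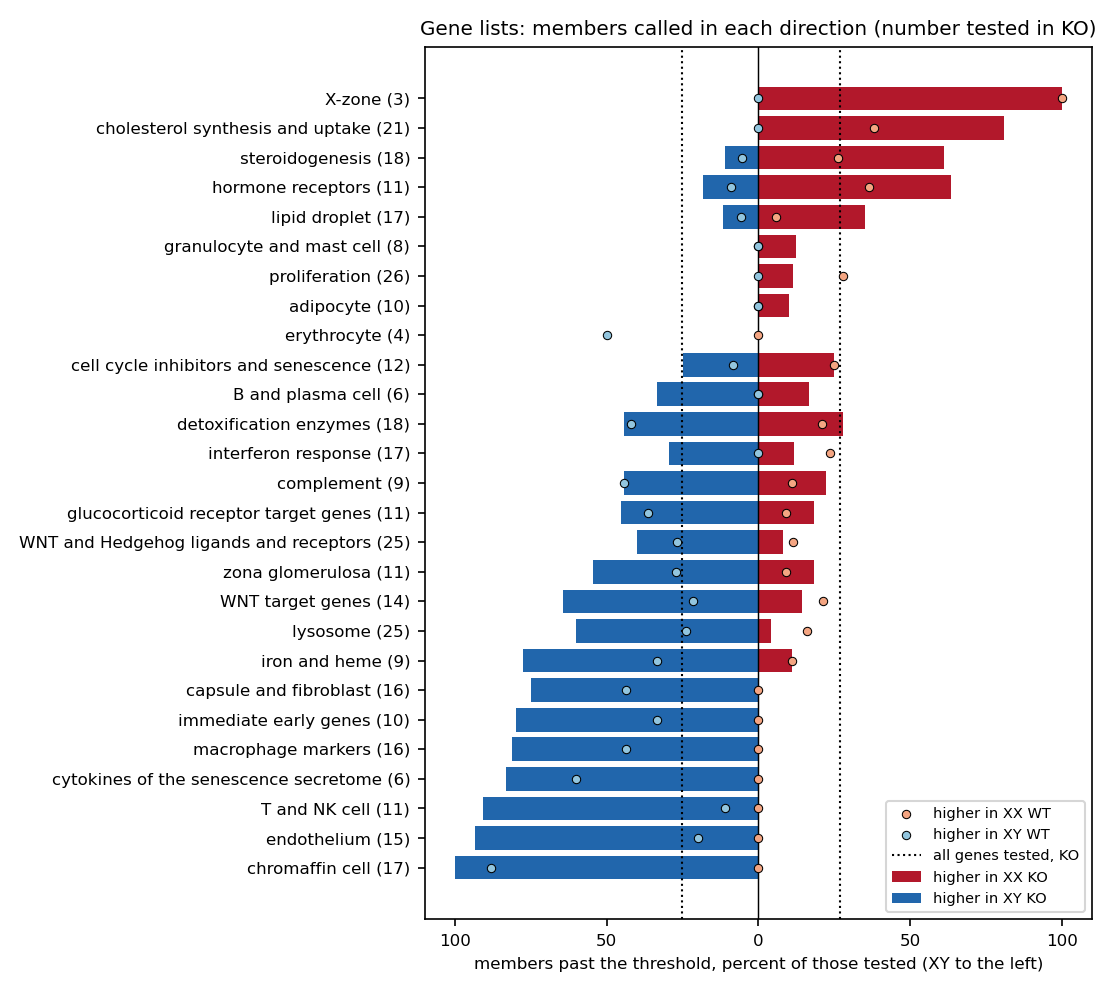
Share of the members of 27 gene lists past the threshold in KO, higher in XX (red bars, right) or in XY (blue bars, left), with the WT shares as points and the share of all tested genes (26.8% and 25.3%) as dotted lines. Cholesterol synthesis lies furthest right among lists of more than 3 members (17 of 21), and the chromaffin list furthest left (17 of 17).

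Outer zone genes leaned to XY. In the zona glomerulosa list, 6 of 11 members were higher in XY KO and 2 higher in XX KO (WT, 3 and 1), the latter 1 under the deposited scaling and 0 with the common sum. Shh, the ligand made by cortical progenitors, was at 27.7, 12.6, 22.5 and 13 RPKM in XY KO and 4.02, 2.39, 2.9 and 1.85 RPKM in XX KO, a change of -2.35 ± 0.27 (adjusted p = 0.000161). Kcnk9, a potassium channel, changed by -2.67 ± 0.20 in KO and -1.72 ± 0.14 in WT, Vsnl1, a calcium sensor, by -1.36 ± 0.22 in KO, and Agtr1b, an angiotensin II receptor, by -0.72 ± 0.15. KO minus WT passed for Kcnk9 (-0.95, adjusted p = 0.0334) and Agtr1b (-0.70, adjusted p = 0.0389) and was lost in 12 and 13 of 25 alternatives. It did not pass for Shh (-0.998, adjusted p = 0.16) or Vsnl1 (-0.68, adjusted p = 0.287). Cyp11b2, the aldosterone synthase, went toward XX instead (0.61 ± 0.15, adjusted p = 0.00762, lost in 2 of 17 alternatives). Whether it shares reads with its neighbour Cyp11b1 was not tested.

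Target genes of the WNT pathway, which ZNRF3 restrains, were mostly higher in XY KO: 9 of 14, with 2 higher in XX KO and a median of -0.41, against 3 and 3 of 14 in WT. Axin2, a feedback inhibitor, was at 11.3, 12.7, 14.9 and 10.5 RPKM in XY KO and 6.56, 5.52, 6.36 and 5.48 RPKM in XX KO without overlap, a change of -0.93 ± 0.11 (adjusted p = 0.000192) against -0.55 ± 0.13 in WT. The nuclear effectors Tcf7 and Lef1 changed by -0.69 and -0.35. The genes higher in XX KO were Myc, the growth regulator, at 0.88 and the receptor gene Tnfrsf19 at 1.26. KO minus WT passed for none of the 14. Lgr4, a receptor for R-spondins, was higher in XX KO (1.32 ± 0.08), and Gli1, a Hedgehog target of the capsule, higher in XY KO (-1.12 ± 0.10). In the list of WNT and Hedgehog ligands and receptors, 10 of 25 members were higher in XY KO and 2 in XX KO. The shares of all genes were 25.3% and 26.8%.

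Of the proliferation genes, 3 of 26 were higher in XX KO (median 0.46) and none higher in XY KO, below the share of all genes, while WT had 7 of 25. The count was 5 without replicate 1 of XX KO and 1 without replicate 4 of XY KO or with the common sum. Mki67, a marker of cycling cells, was at 1.82, 1.29, 6.59 and 2.34 RPKM in XX KO and 1.11, 1.05, 0.81 and 0.513 RPKM in XY KO (log2 fold change 0.95 ± 0.33, adjusted p = 0.0395, lost in 9 of 17 alternatives). Replicate 3 of XX KO was the highest for Mki67 and for Rrm2 and Aurkb, which act in DNA synthesis and mitosis. Cdkn2a, a senescence-associated cell cycle inhibitor, changed by 0.47 ± 0.17 (adjusted p = 0.0395, lost in 9 of 16 alternatives). Cdkn1a, another inhibitor, is on a macrophage list and did not pass (0.38 ± 0.28, adjusted p = 0.286).

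Lists of inflammation and lysosome genes leaned to XY KO, beside the macrophage markers given above. Lysosome members outside the macrophage lists were higher in XY KO for 15 of 25 and in XX KO for 1 (WT, 6 and 4). Of the 25, 7 were shifted toward XY in KO. All genes gave 25.3% and 26.8% in KO, 18.7% and 20.5% in WT, and 3.37% shifted toward XY. Ctsd, cathepsin D, was at 524, 991, 710 and 322 RPKM in XY KO and 172 to 204 RPKM in XX KO, with KO minus WT at -1.72 ± 0.31 (adjusted p = 0.00492). Of the secretome cytokines outside those lists, 5 of 6 were higher in XY KO, and 3 of 5 were higher in XY WT. Cx3cl1, a membrane chemokine, changed by -1.61 ± 0.13 in KO and -0.86 ± 0.13 in WT. Il1a, an interleukin also higher in XY KO, was at 1.86, 4.38, 2.6 and 1.07 RPKM in XY KO and 0.0969 to 0.227 RPKM in XX KO. The part of macrophages in these lists was not tested.

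Iron and heme genes leaned to XY KO for 7 of 9, with 1 exception. Hmox1, which degrades heme, was higher in XY in both genotypes (-2.15 ± 0.20 in KO, adjusted p = 4.7e-05, and an adjusted p of 4.44e-05 in WT). Hamp, the iron hormone hepcidin, went the other way at 65.5, 21.9, 35.7 and 10.4 RPKM in XX KO and 0.191, 0.0665, 0.547 and 0 RPKM in XY KO (4.58 ± 0.46). Unlike C3, C6 and C7, parts of the membrane attack complex, were higher in XY KO (-2.07 ± 0.19 and -2.72 ± 0.38). KO minus WT passed for C6 (-1.11, adjusted p = 0.0283, lost in 8 of 25 alternatives), but not for C7 (-1.08, adjusted p = 0.232) or Hamp (1.15, adjusted p = 0.345). Of 9 complement members, 2 were higher in XX KO and 4 in XY KO, beside 26.8% and 25.3% of all genes. In so short a list these counts do not read as a result.

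The remaining lists gave calls in both directions, beside 26.8% of all genes higher in XX KO and 25.3% higher in XY KO. Detoxification enzymes split, with 5 of 18 higher in XX KO and 8 higher in XY KO. KO minus WT passed for 4 of 19 toward XX and 2 of 19 toward XY, against 1.82% and 3.37% of all genes. Lipid droplet genes had 6 of 17 higher in XX KO (3 with the common sum, 4 without replicate 1 of XX KO) and 2 in XY KO, the latter including Plin5, a droplet coat protein (-1.90 ± 0.24, KO minus WT -0.34, adjusted p = 0.705). Adipocyte markers summed to 409 to 1000 RPKM in XX KO, 76.3 to 409 RPKM in XY KO, 177 to 1650 RPKM in XX WT and 180 to 1300 RPKM in XY WT, and their part in the lipid droplet genes and Lipe was not tested. Glucocorticoid receptor targets had 5 of 11 higher in XY KO, among them Fkbp5, a chaperone of that receptor (-1.71 ± 0.13 in KO, -1.36 ± 0.17 in WT), and 2 higher in XX KO. The interferon list had 2 of 17 higher in XX KO and 5 higher in XY KO, and the list of cell cycle inhibitors 3 and 3 of 12. The counts of these last 2 lists do not read as a result beside 26.8% and 25.3% of all genes. With the common sum, neither list had a call higher in XX KO.

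Markers of other cell types moved with sex and stand beside all of the above. All 17 chromaffin markers, genes of the medulla, were higher in XY KO and 15 of 17 higher in XY WT. Their sum was 286 to 508 RPKM in XX KO, 1340 to 4250 RPKM in XY KO, 1370 to 2300 RPKM in XX WT and 2920 to 8830 RPKM in XY WT. Chga, the granule protein chromogranin A, was at 53.8, 72.8, 87.6 and 55.9 RPKM in XX KO and 760, 268, 412 and 572 RPKM in XY KO, and the chromaffin list gave no KO minus WT call. Markers higher in XY KO were 14 of 15 endothelial, 12 of 16 capsule and fibroblast, and 10 of 11 T and NK cell. In WT the counts were 3 of 15, 7 of 16 and 1 of 9 in the same order, and none was higher in XX in either genotype. KO minus WT passed toward XY for 3 of 15, 2 of 16 and 3 of 11. Of all genes, 25.3% were higher in XY KO, 18.7% higher in XY WT and 3.37% shifted toward XY. The capsule sum was 107 to 148 RPKM in XX KO and 177 to 535 RPKM in XY KO. No marker of any of these lists was at 0 in all 17 libraries. Adipocyte, granulocyte and erythrocyte markers gave 2 calls among the 22 tested, both higher in XX KO. Without replicate 4 of XY KO, 4 erythrocyte markers were higher in XY KO. B and plasma cell markers gave 3 calls of 6, and 0 without replicate 4 of XY KO. The part of these cell types in the gene differences was not tested.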

How the data were processed

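Whole adrenals were sequenced as stranded polyA libraries. According to the study's methods and its processing notes, the authors trimmed reads with cutadapt 3.2, aligned them to mm10 with HISAT2 2.2.1, counted reads per gene with summarizeOverlaps and deposited RPKM. The annotation release is not given in the sources used here. DESeq2 1.34.0 served the authors for their own comparisons. Coordinates of promoters are from GRCm38.p6, the assembly of mm10.

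The deposited columns of each sex and age were scaled separately, so the 17 libraries of 12 weeks were rescaled jointly by the median of ratios. Log2(RPKM + 1) was tested with limma 3.58.1 (trend) in R 4.3.3, with Benjamini-Hochberg adjustment over all genes of a mean of at least 0.5 RPKM in 1 group and a threshold of 0.05. Fold changes on this scale understate the change of low genes. KO and WT were fitted apart, and KO minus WT in 1 fit of 4 groups. Between 98.2% and 98.7% of values per library, among those of up to 1000 reads, lay within 0.02 of a whole number of reads, which gave the depth. Markers of macrophages were left out of the members. Named genes were the 12 largest changes in each direction at 5 RPKM or more without overlap, 6 in each direction for KO minus WT, up to 4 of each of 27 lists, and a few fixed genes. The members and lists were chosen with earlier results of these data known. Alternatives were other scalings, pseudocount, filters, a fold minimum, array weights, voom, a fit over 4 groups and leaving out each library. The scripts were tested on simulated data.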

Additional observations from a re-analysis of the deposited data

Results flagged for a closer look

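Single libraries stood apart from the others of their group, with a gap to the nearest above Dixon's 95% critical value, in 19 of 319 group values tested (6.0%), and chance gives about 1 in 20. In XX WT, 1 library was below the others for Akr1d1 (810 RPKM in replicate 4 against 1050 to 1090 RPKM). In XY WT, 1 library was below the others for Frzb (0.455 RPKM in replicate 5 against 0.744 to 0.783 RPKM). In XY WT, 1 library was above the others for Serpinb1a (9.95 RPKM in replicate 1 against 1.95 to 4 RPKM), Idi1 (29.5 RPKM in replicate 4 against 8.3 to 13.1 RPKM), Cyp51 (23.6 RPKM in replicate 4 against 7.09 to 11.1 RPKM), Akr1b7 (4890 RPKM in replicate 4 against 851 to 1330 RPKM), Pik3c2g (0.00208 RPKM in replicate 5 against 0 in the other 4) and C6 (4.84 RPKM in replicate 3 against 2.31 to 2.92 RPKM). In XX KO, 1 library was below the others for Aldh1a1 (2.24 RPKM in replicate 3 against 2.84 to 2.95 RPKM) and Hmox1 (12.1 RPKM in replicate 1 against 18.2 to 18.8 RPKM). In XX WT, 1 library was above the others for Fabp5 (21.2 RPKM in replicate 1 against 5.97 to 8.27 RPKM) and Prlr (38.2 RPKM in replicate 3 against 32.1 to 32.4 RPKM). In XX KO, 1 library was above the others for Egr1 (9.43 RPKM in replicate 3 against 2.34 to 2.64 RPKM), Fmo1 (53.9 RPKM in replicate 4 against 35.6 to 38.7 RPKM) and Ctsd (204 RPKM in replicate 2 against 172 to 177 RPKM). In XY KO, 1 library was above the others for Cyp11b2 (502 RPKM in replicate 2 against 370 to 387 RPKM) and Lef1 (1.27 RPKM in replicate 1 against 0.841 to 0.874 RPKM). In XY KO, 1 library was below the others for Thrb (2.05 RPKM in replicate 1 against 2.44 to 2.47 RPKM) and Gper1 (2.26 RPKM in replicate 2 against 3.39 to 3.5 RPKM).

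The sex difference itself differed between KO and WT, by the test of the difference in limma, for 30 of the 80 genes followed. Of the 30, 6 in each direction were chosen by this same test. The count is therefore raised by selection beside the 1.82% and 3.37% of all genes shifted toward XX and XY. On the log2 scale the difference KO minus WT was more toward XX for Mgst2 3.17, Adh7 2.77, A2m 2.57, Adh1 2.43, Fmo1 2.42, Cryba4 2.40, Cyp2f2 2.28, Oxtr 1.96 and Vnn3 1.68. It was more toward XY for Gpnmb -6.76, Spp1 -3.80, Fabp5 -3.44, Ctsl -3.15, Lyz1 -3.15, Cd68 -3.14, Anxa1 -3.12, Atf3 -3.09, Akr1c18 -3.03, Anpep -3.01, Ear2 -2.91, Aldh1a1 -2.25, Ly6d -1.85, Ctsd -1.72, Il1a -1.52, Tubb3 -1.36, Mertk -1.31, C6 -1.11, Kcnk9 -0.95, Cx3cl1 -0.75 and Agtr1b -0.70. The calls of A2m, Akr1c18, Agtr1b and Kcnk9 were lost in 18, 14, 13 and 12 of 25 alternatives. Those of Cx3cl1, Oxtr, Vnn3, C6 and Cyp2f2 were lost in 9, 9, 9, 8 and 1. Among the genes shifted toward XY, Cd68, Gpnmb and Mertk are macrophage markers, which were not among the members.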

How the results depend on the processing

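No call reversed its direction in any alternative run. With a common sum of RPKM, 1950 genes were higher in XX KO and 59 were shifted toward XX in KO. A fold minimum of 1 on the log2 scale left 1074 and 980 genes higher in XX and XY KO, 717 and 506 in WT, and 90 and 233 shifted toward XX and XY. Without a filter 223 genes were shifted toward XX, and with array weights 944 toward XX and 1210 toward XY. Leaving out 1 library at a time gave 168 to 572 genes shifted toward XX and 386 to 861 toward XY, 4300 to 5041 and 4103 to 4714 genes higher in XX and XY KO, and 3119 to 4339 and 2702 to 4065 in WT. The cause of these moves was not tested, beyond the stricter fold and the fewer samples. Voom on recovered reads and the recounts of gene lists were added after seeing the data, and voom called 5058 and 4784 genes in KO and 310 and 619 for KO minus WT. Genes higher in XX made up 43.8% of KO minus WT calls with array weights and 45.4% without replicate 5 of XY WT. All 24 largest genes in KO kept their calls in every alternative. They were chosen from these same libraries for large changes without overlap, so this is a weak check. No paired analysis was possible because replicate numbers come from the order of the samples and not from the labels. With 4 or 5 libraries per group, small differences may have been missed, and values under the worth of a few reads carry large counting error.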
